A study of Mus musculus with 7 samples.

Results

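The genes described here mark B lymphocytes as a lineage, and they were read in follicular dendritic cells (FDCs), stromal cells that display antigen inside B-cell follicles. The 9 genes were chosen by symbol as B-cell receptor parts, surface molecules and lineage regulators that B cells in general carry: Cd79a, Cd79b, Ms4a1, Cd22, Pax5, Fcrla, Blk, Pou2af1 and Bank1. All 9 had a row among the 21176 genes of the table, each under a single identifier. The samples were 4 from wild-type mice (WT) and 3 from mice without Ngfr (Ngfr KO), the gene of a neurotrophin receptor. FDCs were isolated by FACS from the popliteal nodes of male mice aged 8 to 12 weeks that had not been immunized, and each sample pooled nodes of several animals. The labels do not give the strain, the allele or the sorting markers, so it is not known here whether the deletion was limited to any cell type. The study's title names germinal centre B-cell activation and selection, and the comparison of Ngfr KO with WT asks which transcripts of the sorted cells differ.

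B cells recognise antigen through a membrane immunoglobulin that cannot signal by itself. Its signal passes through the CD79A and CD79B chains, whose tails are phosphorylated by kinases of the Src family, and inhibitory receptors such as CD22 restrain it. Pax5 holds the lineage in place, and the coactivator encoded by Pou2af1 works with octamer-binding factors on immunoglobulin and other B-cell genes. FDCs are stromal cells and sit among B cells in the follicle. They share some surface receptors with them, such as the complement receptors of Cr2 and the IgE receptor of Fcer2a, which is why the 9 genes, and not these shared ones, mark the B lineage.

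Every Ngfr KO library (20741770 to 21538400 reads) was deeper than every WT library (17244925 to 18873542 reads). Values are the deposited normalised signal, in which 1 unit equals 230 to 295 reads depending on the sample. Ngfr itself was covered by 97 to 298 reads over WT samples and 46 to 104 reads over Ngfr KO samples, and its values did not overlap. The FDC markers were present: all 20 of a fixed FDC list passed the filter on low values, and their summed value ran from 1880 to 5254 over WT samples and from 8257 to 10818 over Ngfr KO samples. That sum was higher in every Ngfr KO sample, and the summed endothelial markers were lower in every one, at 29.4 to 51.5 against 124 to 175. In bulk samples, fewer cells of a type and less RNA per cell cannot be told apart.

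Promoter stretches are shown for Pou2af1, the member whose genotypes were separate, and for Cd22 and Bank1, the members with a match to the core of the site of EBF1, a B-lineage factor. Sequences come from RefSeq windows on GRCm38.p6, which held 1 window for each of 6 members (Cd79a, Cd22, Pax5, Fcrla, Pou2af1 and Bank1). Each runs 5′ to 3′ on the gene's strand, with the motif letters in capitals, and none overlaps an exon of the members in GENCODE M21. The first is 250 bases before the start site of Pou2af1 at chr9:51213440-51213689, plus strand. The second, of 60 bases at chr7:30879048-30879107, minus strand, ends 20 bases before the RefSeq start of Cd22. It lies within the span of the gene in GENCODE, in no exon. The third is the 60 bases before the start of Bank1 at chr3:136326067-136326126, minus strand.
Pou2af1: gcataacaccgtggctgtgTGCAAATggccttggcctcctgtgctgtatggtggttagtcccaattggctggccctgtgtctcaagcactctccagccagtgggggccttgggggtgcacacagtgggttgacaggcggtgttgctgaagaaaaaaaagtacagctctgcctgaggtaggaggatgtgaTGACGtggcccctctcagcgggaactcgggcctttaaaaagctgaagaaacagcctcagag
Cd22: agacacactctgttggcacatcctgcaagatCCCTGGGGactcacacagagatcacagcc
Bank1: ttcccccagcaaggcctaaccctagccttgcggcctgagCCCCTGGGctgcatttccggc

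Both strands of each 300-base window were searched. The EBF1 core CCCNNGGG occurred in 2 of the 6 windows, those of Cd22 and Bank1, and in 13.7% of all 32851 windows. The octamer ATGCAAAT and the full cyclic AMP response element TGACGTCA occurred in 0 of the 6, against 1.74% and 1.79% of all windows. The Pou2af1 window held TGCAAAT, the octamer without its first letter, and TGACG, the core of the cyclic AMP element. These letters were searched for after the sequence had been read, and occurred in 4.02% and 20.8% of all windows. A match of letters is a description, not a binding site, and no binding was measured here.

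B-cell transcripts were found in every library. No member was at 0 in any sample, and the fewest reads were 22, for Pax5 in Ngfr KO replicate 3. Together the members took 0.0164% to 0.0264% of all reads in WT samples and 0.0108% to 0.0404% in Ngfr KO samples. Both the highest and the lowest of these shares were in Ngfr KO samples, replicates 2 and 3, so the groups overlapped. Cd79a, Cd79b and Ms4a1 made up 75.2% to 81.4% of the members' summed value in WT and 77.5% to 83.0% in Ngfr KO.

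Levels of different genes were compared per kilobase of exon (the union of GENCODE M21 exons). In WT the order of the means was Cd79a at 3.57 ± 0.92 normalised units per kilobase (SD, n = 4), Cd79b at 2.98 ± 0.85, Ms4a1 at 0.304 ± 0.126, Fcrla at 0.297 ± 0.095, Bank1 at 0.156 ± 0.033, Cd22 at 0.119 ± 0.042, Blk at 0.0927 ± 0.0384, Pou2af1 at 0.0786 ± 0.0174 and Pax5 at 0.0325 ± 0.0112. The mean of Cd79a was 110.0-fold that of Pax5, the last in the order. Neighbours in this order had overlapping ranges except Cd79b and Ms4a1, Fcrla and Bank1, and Pou2af1 and Pax5. In Ngfr KO the order differed in its lower part: Pou2af1, with a mean of 0.206 per kilobase, stood in the fifth place, above Bank1 (0.147), Blk (0.126) and Cd22 (0.118).

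**Figure D1:**
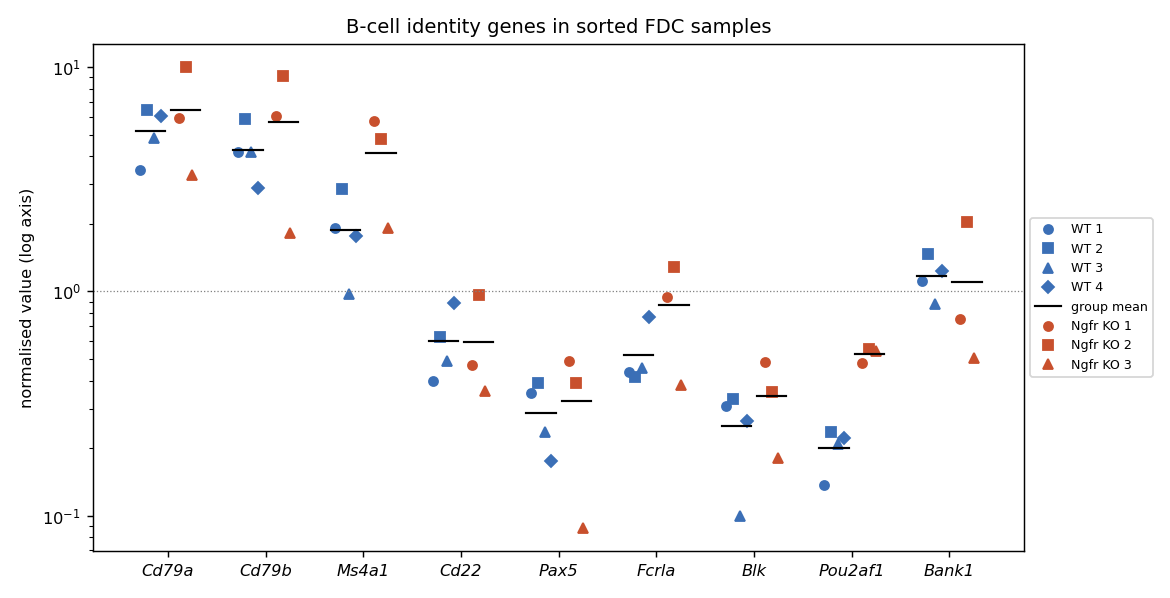
Normalised value (log axis) of each B-cell identity gene in each sample, WT in blue and Ngfr KO in red, one symbol per replicate number, with the group mean as a black line and a dotted line at the filter value of 1. The genotypes overlap for 8 genes, and for Pou2af1 the Ngfr KO samples (0.479 to 0.553) lie above the WT samples (0.136 to 0.236).

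The genotype comparison called 1 member in each test, near the share over all genes. The filter asked for 1 unit or more in 3 or more samples. Genes that passed were tested with limma on log2(value + 1), and 34.2% of the 8326 genes tested had a Benjamini-Hochberg adjusted p under 0.05 (18.3% higher in Ngfr KO). Only 4 members passed that filter (Cd79a, Cd79b, Ms4a1 and Bank1), of which Ms4a1 was called, higher in Ngfr KO. The other 5 were fitted together with the genes that passed, and limma called 0 of them, with Pou2af1 alone at an unadjusted p under 0.05. In edgeR's quasi-likelihood test on the reads recovered from the values, all 9 were tested and 1 was called, Pou2af1, against 15.2% of 16751 genes (8.67% higher in Ngfr KO). The called shares were thus 25% of the 4 members that passed in limma and 11.1% of the 9 in edgeR, each from 1 gene. At an unadjusted p under 0.05, each test had 2 of the 9 members, Ms4a1 and Pou2af1. Every gene called after adjustment is also under that threshold. The share of all genes tested there is thus at least 34.2% in limma and 15.2% in edgeR. The median log2 change over all 9 was 0.18 in limma, against 0.02 over all genes tested, and 0.51 in edgeR, against -0.02. Because 1 unit is worth at least 230 reads, the pseudocount of 1 understates the change of the 5 members with low values.

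**Figure D2:**
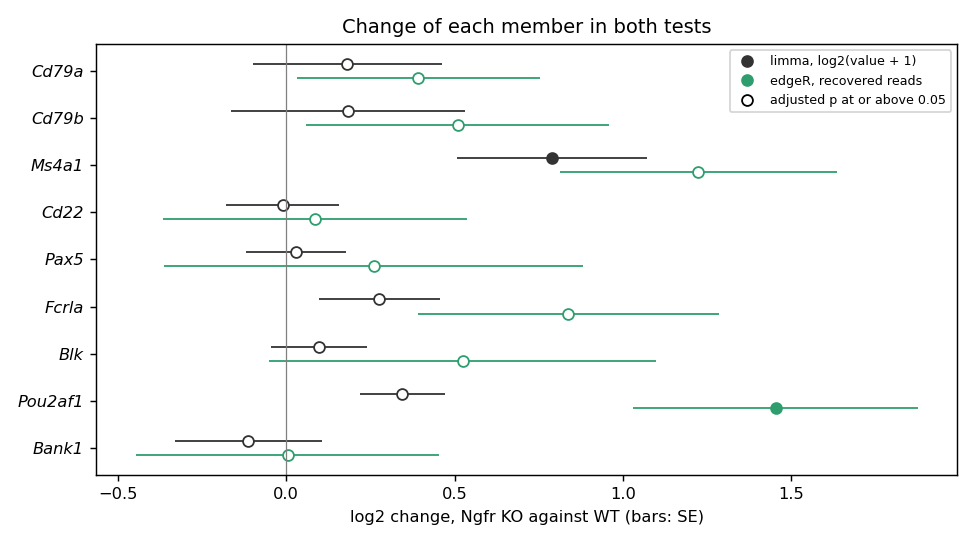
Log2 change of each member, Ngfr KO against WT, in limma on log2(value + 1) (dark) and edgeR on recovered reads (green), with bars of 1 SE; filled points have an adjusted p under 0.05. Ms4a1 is filled in limma at 0.79 and Pou2af1 in edgeR at 1.45, and the other points are open.

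The signalling chains of the B-cell receptor come first. Cd79a (ENSMUSG00000003379, chromosome 7, 24897381 to 24902197, plus strand, GRCm38) had values of 3.48, 6.45, 4.81 and 6.07 in WT replicates 1 to 4 and of 5.91, 10.01 and 3.32 in Ngfr KO replicates 1 to 3. Ngfr KO replicate 2 was above every WT sample and replicate 3 below every one. The means were 5.20 ± 1.34 (SD, n = 4) and 6.41 ± 3.37 (SD, n = 3), with a limma log2 change of 0.18 (SE 0.28, adjusted p = 0.629) and a 95% interval of -0.43 to 0.79.

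Cd79b (ENSMUSG00000040592, chromosome 11, 106311341 to 106314762, minus strand), the partner chain, had 4.17, 5.86, 4.17 and 2.88 in WT and 6.02, 9.17 and 1.83 in Ngfr KO. Here Ngfr KO replicates 1 and 2 lay above all WT samples and replicate 3 below them all. The limma log2 change was 0.18 (SE 0.35, adjusted p = 0.699, 95% interval -0.57 to 0.94). Within the Ngfr KO group the highest Cd79b value was 5.02 times the lowest, against 2.03 times in WT. The exact permutation test, two-sided over 35 arrangements of the samples, gave p = 0.714 for Cd79a and 0.686 for Cd79b.

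Blk (ENSMUSG00000014453, chromosome 14, 63372836 to 63417037, minus strand) encodes a Src family kinase of B cells that phosphorylates these chains. Its values were 0.307, 0.329, 0.09996 and 0.263 in WT and 0.482, 0.356 and 0.180 in Ngfr KO. The lowest value was in WT replicate 3, with 23 reads, and the highest in Ngfr KO replicate 1, with 133 reads. The groups overlapped (limma log2 change 0.10, SE 0.14, adjusted p = 0.607; edgeR 0.52, SE 0.57, adjusted p = 0.578).

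Bank1 (ENSMUSG00000037922, chromosome 3, 136053363 to 136326066, minus strand) encodes a scaffold protein that links the receptor to its kinases. It had 1.11, 1.47, 0.878 and 1.23 in WT and 0.754, 2.03 and 0.505 in Ngfr KO. It was one of 2 members with a negative limma log2 change, -0.11 (SE 0.22, adjusted p = 0.708). Ngfr KO replicates 1 and 3 lay below all WT samples and replicate 2 above them, so the WT mean was 1.17 ± 0.25 (SD, n = 4) and the Ngfr KO mean 1.10 ± 0.82 (SD, n = 3).

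Among the surface molecules, Ms4a1 (ENSMUSG00000024673, chromosome 19, 11249675 to 11266241, minus strand), the gene of CD20, had 1.92, 2.87, 0.969 and 1.77 in WT. In Ngfr KO it had 5.74, 4.76 and 1.92. Replicates 1 and 2 of Ngfr KO lay above all WT samples, while replicate 3 lay level with WT replicate 1 and below WT replicate 2. The means were 1.88 ± 0.78 (SD, n = 4) and 4.14 ± 1.99 (SD, n = 3), and the limma log2 change was 0.79 (SE 0.28, adjusted p = 0.0472, 95% interval 0.18 to 1.40). The call was a narrow one: the exact permutation test (two-sided) gave p = 0.171, the edgeR log2 change was 1.22 (SE 0.41, adjusted p = 0.0693), and Ms4a1 was called under 6 of 17 alternatives, with adjusted p-values from 0.00808 to 0.188.

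Cd22 (ENSMUSG00000030577, chromosome 7, 30865402 to 30880342, minus strand), an inhibitory lectin that binds sialic acid, had the most equal group means. Its values were 0.397, 0.625, 0.487 and 0.885 in WT and 0.468, 0.963 and 0.360 in Ngfr KO, or 0.598 ± 0.213 (SD, n = 4) and 0.597 ± 0.322 (SD, n = 3). The limma log2 change was -0.01 (SE 0.17, adjusted p = 0.968, 95% interval -0.38 to 0.35). The sign depended on the scaling, with 0.02 after median ratio scaling and 0.03 after quantile normalization.

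Fcrla (ENSMUSG00000038421, chromosome 1, 170917576 to 170927583, minus strand) encodes an Fc receptor-like protein that stays inside B cells. It had 0.436, 0.415, 0.456 and 0.767 in WT and 0.943, 1.29 and 0.380 in Ngfr KO. Ngfr KO replicates 1 and 2 lay above all WT samples and replicate 3 below them. The limma log2 change was 0.28 (SE 0.18, adjusted p = 0.246) and that of edgeR 0.84 (SE 0.45, adjusted p = 0.232).

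Of the regulators of the lineage, Pax5 (ENSMUSG00000014030, chromosome 4, 44524757 to 44710487, minus strand) was the scarcest member per kilobase. It had 0.350, 0.389, 0.235 and 0.175 in WT and 0.490, 0.390 and 0.0881 in Ngfr KO. The Ngfr KO group held both the highest and the lowest value, 135 and 22 reads. The limma log2 change was 0.03 (SE 0.15, adjusted p = 0.892), and the edgeR log2 change was 0.26 (SE 0.62, adjusted p = 0.816).

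Pou2af1 (ENSMUSG00000032053, chromosome 9, 51213708 to 51240080, plus strand), the gene of the octamer coactivator, was the only member whose genotypes did not overlap. It had 0.136, 0.236, 0.209 and 0.221 in WT, from 35 to 63 reads, and 0.479, 0.553 and 0.541 in Ngfr KO, from 132 to 163 reads. All 3 Ngfr KO samples were alike and lay above all WT samples, with means of 0.524 ± 0.040 (SD, n = 3) and 0.200 ± 0.044 (SD, n = 4), a ratio of 2.61. Its p in the exact permutation test (two-sided) was 0.0286, the lowest that 35 arrangements can reach. The groups did not overlap for 25.6% of all genes in the table, and for 12.5% of them Ngfr KO was the higher group.

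The test of Pou2af1 lay close to the threshold. In limma the log2 change was 0.34 (SE 0.13, adjusted p = 0.0510), and in edgeR it was 1.45 (SE 0.42, adjusted p = 0.0434). It was positive under all 17 alternatives and called under 8 of them, with adjusted p-values from 0.0247 to 0.135.

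Most members differed widely among the Ngfr KO samples. Ngfr KO replicate 2 had the highest value of all 7 samples for 6 members (Cd79a, Cd79b, Cd22, Fcrla, Pou2af1 and Bank1), and Ngfr KO replicate 1 for the other 3 (Ms4a1, Pax5 and Blk). Replicate 3 had the lowest value for 6 members (Cd79a, Cd79b, Cd22, Pax5, Fcrla and Bank1). The value in replicate 2 was 1.98 times (Blk) to 5.02 times (Cd79b) that in replicate 3 for 8 members, and 1.02 times for Pou2af1. The Ngfr KO coefficient of variation was 7.57% for Pou2af1 and lay between 44.7% (Blk) and 74.7% (Bank1) for the others.

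**Figure D3:**
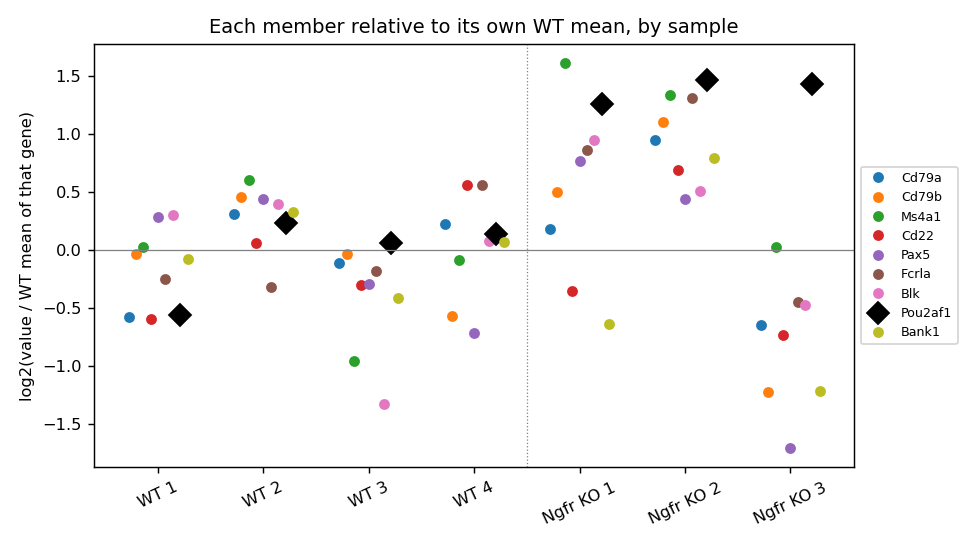
Log2 ratio of each member to its own WT mean in each of the 7 samples; colours mark genes, the black diamonds mark Pou2af1 and the dotted line separates WT from Ngfr KO. In Ngfr KO replicate 3, 7 members lie below 0, Ms4a1 lies near 0, and Pou2af1 lies as high as in Ngfr KO replicates 1 and 2.

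Leaving out Ngfr KO replicate 3 brought the number of members called by limma from 1 to 3, Cd79b (log2 change 0.71), Fcrla (0.48) and Ms4a1, where 33.5% of all genes tested were called. The groups of 6 members (Cd79b, Ms4a1, Pax5, Fcrla, Blk and Pou2af1) then no longer overlapped, against 36.6% of all genes. Without replicate 2 the log2 changes of Cd79a and Cd79b turned to -0.16 and -0.21, and the number called was 0. The groups of Bank1, lower in Ngfr KO, and of Pou2af1 did not overlap without replicate 2, against 31.3% of all genes. Replicate 3 also differed in other marker lists. Its myeloid sum was 49.0, against 11.01 and 17.7 in the other Ngfr KO samples, and its endothelial sum was 29.4, against 49.7 and 51.5. Its summed leukocyte genes, at 42.3, were below the 59.99 and 63.7 of the other Ngfr KO samples. The part of these differences in the members' values was not tested.

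Each member was also set against Cd79a in the same sample. Relative to Cd79a, Cd22 stood at 9.70% to 14.6% over WT samples and 7.91% to 10.9% over Ngfr KO samples. For Fcrla the same ratio was 6.45% to 12.6% and 11.5% to 16.0%. Pou2af1 stood at 3.64% to 4.34% of Cd79a in the 4 WT samples, the narrowest range of the 8 ratios. In Ngfr KO it stood at 8.10%, 5.52% and 16.3% in replicates 1 to 3, above every WT sample. These 3 ratios were in the reverse order of the Cd79a values (5.91, 10.01 and 3.32), while the values of Pou2af1 were alike. The other 7 ratios overlapped between genotypes. These ratios were chosen after the values were seen and carry no test.

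Other genes of the receptor pathway were taken from a fixed list of 20 genes that act at or below the receptor. Of the 11 that passed the filter, limma called 6 higher and 3 lower, with a median log2 change of 0.61. The largest rise was that of Fcgr2b, an inhibitory Fc receptor that FDCs also carry, with a log2 change of 2.12. Blnk, the adaptor downstream of Syk, had a WT mean of 5.89 ± 2.38 (SD, n = 4) and rose to 23.8 ± 5.4 (SD, n = 3), a limma log2 change of 1.91 (SE 0.29, adjusted p = 9.60e-04). Cd72, a further inhibitory receptor, rose by 0.95 (SE 0.22, limma adjusted p = 0.00777). Neither followed the members in Ngfr KO replicate 3, where 6 members were at their lowest. Blnk was at 17.8 and Cd72 at 4.74 there, above the highest WT values of 7.56 and 3.91. Which cells these transcripts came from was not tested. The largest fall was that of Inpp5d, the gene of the SHIP1 phosphatase, at -0.75 (limma adjusted p = 0.0124).

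A list of 18 other B-lineage surface and cytoplasmic genes, which also holds Cd72, had 9 past the filter, 3 called higher and 2 lower, with a median log2 change of 0.21. Cd40, the receptor for T-cell help that stromal cells can also carry, had a WT mean of 0.771 ± 0.228 (SD, n = 4) and rose to 4.64 ± 1.00 (SD, n = 3), a log2 change of 1.67 (limma adjusted p = 1.53e-04). Ltb, which encodes lymphotoxin beta, fell by 0.92 on the log2 scale (limma adjusted p = 0.00330). Among 12 B-lineage transcription factors, 6 passed the filter and only Foxo1 was called, with a log2 change of -1.28 (limma adjusted p = 3.30e-04). Ebf1 and Spib, partners of Pax5 in the lineage, had log2 changes of 0.27 and 0.36 (limma adjusted p = 0.180 and 0.176). Both were at their highest in Ngfr KO replicate 3, at 4.66 and 11.1, where Pax5 was at its lowest (0.0881).

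Immunoglobulin genes overlapped between genotypes as well. Ighm, the heavy chain of the receptor on naive B cells, had 4.49, 5.34, 2.17 and 4.51 in WT and 3.74, 9.81 and 2.26 in Ngfr KO, and limma called 0 of the 8 constant region and J chain genes tested and edgeR 0 of 9, with 0 at an unadjusted p under 0.05 in either test. In WT replicate 3 Igkc reached 179.7 and the summed list 435, against 27.1 to 41.2 in the other WT samples, while no member was highest there and Ms4a1 and Blk were at their lowest.

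Germinal centre genes were compared because Pou2af1 is also needed for germinal centres to form. Their summed value was 41.0 to 45.9 in Ngfr KO and 5.29 to 12.7 in WT, most of it from Fas.

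Markers of other leukocytes are given as a measure of what else the libraries held. The T-cell list summed to 4.28 to 16.3 over WT and 7.21 to 14.98 over Ngfr KO samples, and limma called 0 of its 6 tested genes and edgeR 0 of 12, with 0 at an unadjusted p under 0.05 in either test. Cd3e, a chain of the T-cell receptor complex, ranged from 0.135 to 0.539 over WT and from 0.116 to 0.298 over Ngfr KO samples. Ptprc, the gene of the pan-leukocyte protein CD45, ranged from 1.52 to 6.43 over WT and from 3.36 to 5.02 over Ngfr KO samples, and its limma log2 change was 0.00 (SE 0.32, adjusted p = 0.997). Of 9 leukocyte genes tested, 5 were called higher and 0 lower. The summed myeloid list did not overlap between genotypes, at 3.68 to 10.9 over WT and 11.01 to 49.0 over Ngfr KO samples, and neither did the reticular stroma list, at 96.7 to 234 and 265 to 375. Of the 4 myeloid genes tested with limma, 2 were called higher, Lyz2 and Cd14, and 0 lower. Fcer1g and Tyrobp, also tested, overlapped between genotypes. Lyz2 ranged from 0.582 to 5.96 in WT and from 3.29 to 28.1 in Ngfr KO. Of the 8 tested with edgeR, 1 was called higher and 1 lower. The lower one, C1qb, ranged from 0.0114 to 0.160 over WT and from 0 to 0.00363 over Ngfr KO samples, with at most 41 reads. Myeloid genes such as Adgre1, Itgam, Itgax and C1qa were at 0 in at least 1 sample. The part of these cells in the members' values was not tested.

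**Figure D4:**
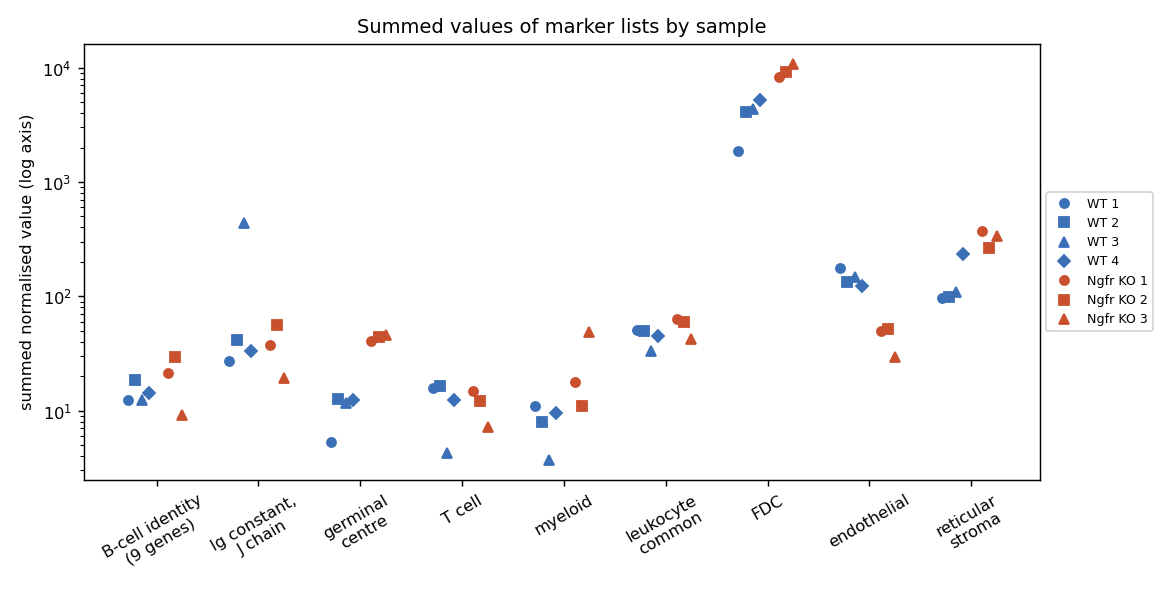
Summed normalised value (log axis) of the 9 B-cell identity genes and of 8 marker lists in each sample, WT in blue and Ngfr KO in red, one symbol per replicate number. The genotypes overlap for the B-cell identity genes (12.3 to 18.6 against 9.12 to 29.5), as they do for the immunoglobulin, T-cell and leukocyte lists. They do not overlap for the germinal centre, myeloid, FDC and reticular stroma lists, higher in Ngfr KO, or for the endothelial list, lower in Ngfr KO.

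The genes whose pattern over the 7 samples was most like that of the members were sought by a rule. The mean profile of the 4 members that passed the filter was compared with every other gene that did, by Pearson's r as a measure of likeness over 7 samples that share their libraries. Among the 10 most alike were Aatf (r = 0.968), Gdap2 (0.965), Stk17b (0.959), H2-DMb2 (0.950), Ppox (0.946), Rhot1 (0.941), H2-Aa (0.941), Lonp2 (0.932) and Renbp (0.926). H2-Aa, a chain of the MHC class II molecule that B cells carry, had 9.93, 20.6, 11.5 and 10.6 in WT and 18.1, 38.1 and 10.4 in Ngfr KO. H2-DMb2, a chain of the peptide exchange factor for class II, had 1.70, 3.30, 1.94 and 2.41 in WT and 4.68, 6.50 and 1.84 in Ngfr KO. As with Cd79a, Ngfr KO replicate 2 was the highest sample for both genes. Both were picked for likeness to a profile that includes Cd79a, so this is no separate support. None of these 9 genes was called by limma (adjusted p = 0.120 to 0.571).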

How the data were processed

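RNA of sorted FDCs was amplified with SMART-Seq v4 and made into Nextera XT libraries, per the labels' protocols. The file deposited by the authors gives a normalised signal for each gene and sample, with TMM (trimmed mean of M values) in the table's title. bcl2fastq 2.20.0.422 and build mm10 are named in the submitters' processing notes; the aligner, counter and annotation are not given in the sources used here. In every sample 100% of values were whole multiples of 1 step (within 1% of a step, widening with the value), which gave back the reads, with no division by gene length.

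Genes that reached 1 unit in 3 or more samples were tested on log2(value + 1) with limma 3.58.1 (R 4.3.3, trended eBayes, no covariates); members that failed were fitted with them. edgeR 4.0.16 was run on recovered reads. This test gives no SE of its own, so each SE printed or drawn for edgeR is the absolute log2 change divided by the square root of the test's F statistic. Calls use a Benjamini-Hochberg adjusted p under 0.05 over all genes tested. Scripts were tested on simulated data. Positions and exon lengths are from GENCODE M21 (21118 identifiers matched). Nothing says that molecular identifiers were used. Whether samples came from separate cages or days is not given, so p-values measure the spread between these pooled samples.

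The members and lists were chosen with earlier results of these data known. Named are the members, the defining genes and the most changed called gene of a list, and the 10 genes most like the members; others were chosen after their values were seen. Some genes that this rule names are not reported here. Alternatives were other filters, pseudocounts, scalings, robust eBayes, a replicate block, thinned reads, edgeR and leaving out each sample.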

Additional observations from a re-analysis of the deposited data

Results flagged for a closer look

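In 22 sets of the 4 WT values (each member, the members' share of reads and each list sum), the gap between the most distant sample and its neighbour was compared with the range. By Dixon's criterion 5 sets stood out; chance flags about 1 in 20, here 1.1. Fcrla was at 0.767 in WT replicate 4 and 0.415 to 0.456 in the others (gap 0.884 of the range). The immunoglobulin list was high in WT replicate 3 (435 against 27.1 to 41.2, gap 0.965), as was the plasma cell list (46.3 against 7.39 to 11.01, gap 0.907), and the 2 lists share Jchain. The germinal centre list was low in WT replicate 1 (5.29 against 11.5 to 12.7, gap 0.841). The reticular stroma list was high in WT replicate 4 (234 against 96.7 to 109, gap 0.909).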

How the results depend on the processing

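With 3 and 4 pooled samples and few reads for 5 members, differences such as the 95% intervals given above remain possible on the scale of log2(value + 1). For members with low values these intervals understate the fold changes that remain possible. The 95% interval of Cd22 was -0.96 to 0.86 with a pseudocount of 0.1. Against 1 member called (Ms4a1), limma called 0 with a pseudocount of 0.1 or robust eBayes, 0 with a filter at 10, which no member passed (all 9 were fitted as added genes), and 2 (Ms4a1 and Pou2af1) with a pseudocount of 5, median ratio scaling or thinned reads. The 1 member called was Pou2af1 in place of Ms4a1 with no filter, quantile normalization, edgeR, or without WT replicate 3 or WT replicate 4. Leaving out 1 sample gave 0 to 3, with 0 without WT replicate 1, Ngfr KO replicate 1 or Ngfr KO replicate 2. The number of members with separate groups was 1 as reported and 1 to 6 with a sample left out, where it cannot fall below 1; Bank1 joined Pou2af1 without Ngfr KO replicate 2. The count of all genes called was 2844 as reported, 535 with the filter at 10, 2126 with no filter and 1614 to 3006 with a sample left out. The cause of these shifts was not tested, apart from the 1297 genes that the filter at 10 leaves.

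Of the log2 changes of single members, 5 turned sign, and none was called where it did. Cd22 turned positive with median ratio scaling (0.018), quantile normalization (0.034), the replicate block (0.072) and edgeR (0.086), and ran from -0.17 to 0.096 with a sample left out. Pax5 turned negative with the replicate block (-0.013) and ran from -0.063 to 0.16 with a sample left out. Bank1 turned positive with edgeR (0.0045) and ran from -0.41 to 0.094 with a sample left out. For Cd79a and Cd79b these ranges were -0.16 to 0.52 and -0.21 to 0.71, negative only without Ngfr KO replicate 2.

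Whether the replicate numbers pair the samples is not known. The deviations of same-numbered samples correlated at 0.30, -0.06 and -0.01 across genes, and not every sample correlated best with its own number. WT replicate 1 and Ngfr KO replicate 1, at 0.30, were the most alike of all pairs across genotypes. With so few pairs, these correlations cannot settle the question. With the replicate block 1 member (Ms4a1) and 2717 genes were called.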
